A study of Homo sapiens with 12 samples.

Results

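The genes described here are the aryl hydrocarbon receptor gene AHR, its partner ARNT, the repressors AHRR and TIPARP, and the CYP1 target genes CYP1A1, CYP1A2 and CYP1B1. They were taken by symbol from the count table, which held each of them once, and are 7 of 26364 genes. The set was chosen because CYP1A1 rose late after insulin, so the values at 240 min against 0 min are given as a description, without a test. A count filter on low values left 13852 genes and 6 of the 7 genes for testing, and CYP1B1 did not pass it.

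AHR is a transcription factor that waits in the cytoplasm in a complex with HSP90. When a ligand binds, such as a planar aromatic pollutant or a tryptophan metabolite, AHR enters the nucleus, pairs with ARNT and binds DNA at dioxin response elements. The CYP1 genes, which encode cytochrome P450 enzymes that oxidize many of these ligands, are the best known targets in liver. AHRR and TIPARP are targets too, and their products restrain AHR.

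RNA-seq was made from HepG2, a human hepatocellular carcinoma line, to follow transcription after insulin, and 1 ChIP-seq library located the insulin receptor (IR) on chromatin in insulin-stimulated cells. By their titles the RNA libraries were taken at 0, 5, 10, 30 and 240 min after insulin, in duplicate. The deposited treatment text names EMEM medium for 16 h and then 3 nM insulin for 5 min, in the same words for every RNA library, the 0 min libraries included, so the times rest on the titles. All libraries came from this 1 cell line, and no time-matched cells without insulin were analysed here, so that insulin and time in the medium cannot be told apart. The study's methods say that the RNA-seq was done once, on biologically independent samples, so the p-values measure the spread within 1 experiment.

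The libraries held 18347109 to 45005769 reads counted on genes, and 0 min replicate 2 was the deepest. Counts of the 2 replicates at each time lay further apart than sampling alone gives (chi-square divided by its degrees of freedom, 2.86 to 6.46). Hepatocyte markers were abundant in every library, with ALB at 13892 to 20349 CPM, which is the count relative to the TMM-adjusted library size. HNF4A was lower, at 346 to 473 CPM, and TTR the lowest of them, at 137 to 177 CPM. The summed level of 8 markers of other cell types was 345 to 502 CPM, in overlapping ranges at 0 and 240 min. Of these, KRT19 and CD68 carried most of the sum, PTPRC had 0 counts in every library and COL1A2 had at most 1. KRT19, a bile duct marker, was at 304 to 455 CPM, above TTR and in a range that overlapped HNF4A. In bulk RNA, more cells that express a gene and more RNA per cell cannot be told apart.

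Dioxin response elements share the core GCGTG, and the extended form TNGCGTG holds that core. Both were searched on both strands in the 2 kb upstream of each gene's annotated start in hg19. Of 26318 genes, 30.2% had at least 1 extended motif and the median was 0. CYP1A1 had 5, and 0.038% of genes had as many. They are shown because CYP1A1 is the gene with the late rise, with the motif in capitals and 6 bases on either side, each read 5′ to 3′ along the motif:

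CYP1A1, 1377 bases upstream, chr15:75019242-75019260, plus strand: ttgtatTTGCGTGcctagc

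CYP1A1, 1053 bases upstream, chr15:75018918-75018936, minus strand: ccccccTCGCGTGactgcg

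CYP1A1, 978 bases upstream, chr15:75018843-75018861, plus strand: caggcgTTGCGTGagaagg

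CYP1A1, 890 bases upstream, chr15:75018755-75018773, plus strand: gctagcTTGCGTGcgccgg

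CYP1A1, 495 bases upstream, chr15:75018360-75018378, plus strand: cccggcTCGCGTGagaagc

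CYP1B1 had 4 extended motifs, a number that 0.19% of genes reached. TIPARP had 1, like 30.2% of genes. Those of both genes are shown to set beside the CYP1A1 motifs:

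CYP1B1, 1465 bases upstream, chr2:38304776-38304794, plus strand: gagaggTTGCGTGacttaa

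CYP1B1, 962 bases upstream, chr2:38304273-38304291, plus strand: caccctTGGCGTGgggtgc

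CYP1B1, 826 bases upstream, chr2:38304137-38304155, plus strand: tgggctTTGCGTGcgccgc

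CYP1B1, 807 bases upstream, chr2:38304118-38304136, plus strand: tcccctTTGCGTGcggagc

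TIPARP, 1356 bases upstream, chr3:156390843-156390861, minus strand: ttcaatTAGCGTGggcata

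ARNT had 2 extended motifs, and 6.19% of genes had as many. CYP1A2, AHR and AHRR had none in this window. For AHRR this depended on the start taken, since 1 of its 2 RefSeq starts (GRCh38.p14) had an extended motif 30 bases before it. The core alone occurred 11 times upstream of CYP1A1, against a median of 2 over all genes, and 62.2% of these bases were G or C, against a median of 48.2%. The part of base composition in these motif counts was not tested, and a match of letters is not a bound site.

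**Figure D1:**
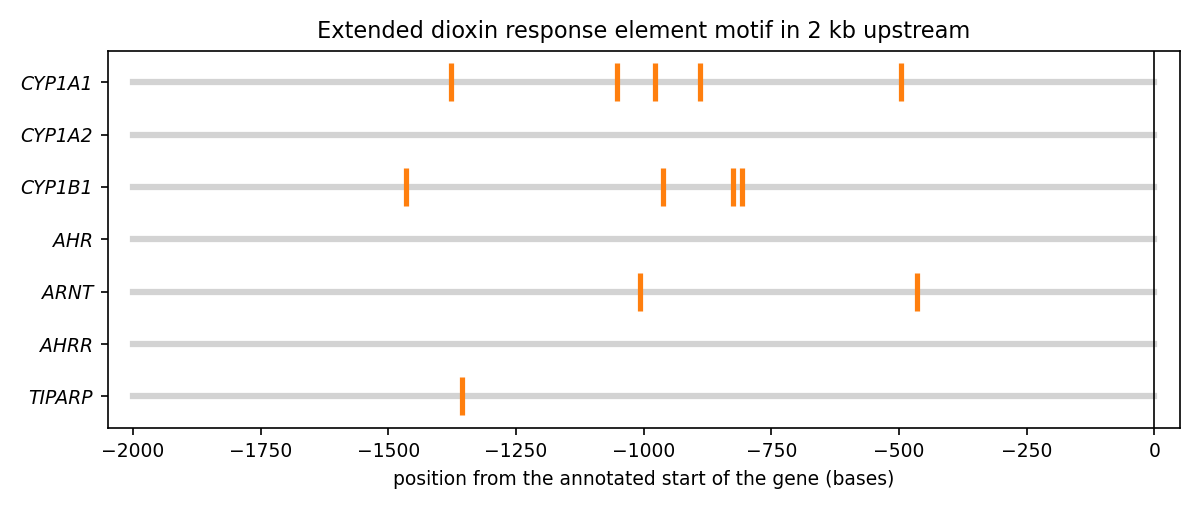
Positions of the extended dioxin response element motif, on either strand, in the 2 kb upstream of the 7 genes. The x axis is the distance from the annotated start in bases, each orange mark is 1 motif, and CYP1A1 with 5 and CYP1B1 with 4 have the most.

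CYP1A1 lies on the minus strand at chr15:75011883-75017877 (hg19) and CYP1A2 on the plus strand at chr15:75041184-75048941. The 2 genes are transcribed away from each other, from starts 23.3 kb apart. Their 250 bases before the start, from RefSeq (GRCh38.p14), are shown because both genes were higher at 240 min, with any core motif in capitals. CYP1A1 held 1 core there and CYP1A2 held none, and 36.5% of 35116 RefSeq windows from 250 bases before to 50 bases after a start held one:

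CYP1A1, chr15:74725529-74725778, minus strand: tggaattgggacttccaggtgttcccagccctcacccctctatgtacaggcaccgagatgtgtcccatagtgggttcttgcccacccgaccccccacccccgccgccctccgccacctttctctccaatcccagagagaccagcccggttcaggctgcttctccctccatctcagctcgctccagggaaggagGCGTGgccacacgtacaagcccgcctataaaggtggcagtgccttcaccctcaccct

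CYP1A2, chr15:74748595-74748844, plus strand: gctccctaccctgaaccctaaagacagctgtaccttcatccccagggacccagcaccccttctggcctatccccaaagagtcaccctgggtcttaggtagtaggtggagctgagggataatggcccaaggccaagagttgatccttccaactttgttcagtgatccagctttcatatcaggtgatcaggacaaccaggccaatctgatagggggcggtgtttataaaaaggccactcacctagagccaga

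CYP1A1, the enzyme whose induction is the classic readout of AHR activity, was measured at 10.9 and 9.65 CPM at 0 min. The 5 min libraries held 10.1 and 7.42 CPM, the 10 min libraries 10.2 and 10.8 CPM, and the 30 min libraries 10.4 and 10.4 CPM. At 240 min it reached 45.2 and 54.4 CPM, from 1131 and 1034 counts. Both 240 min libraries were above all 8 earlier libraries, and the earlier times overlapped 0 min. The fitted difference at 240 min was 2.29 (log2, SE 0.11, n = 2 per time), or 4.89-fold.

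Among all 13852 genes tested this was the 5th rank by fitted log2 fold change, and it was rank 1 of the 10388 genes that averaged 5 CPM or more. The 4 genes above it were C3orf80 (3.72), PCDH9 (3.23), LZTS1 (3.09) and LOC101927272 (2.58), each with a mean below 1 CPM. They were named after their values were seen. No stretch of 50 bases of the CYP1A1 transcripts occurred in another gene of the GRCh37 annotation, CYP1A2 included. Shorter reads and alignments with mismatches were not examined.

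CYP1A2, a hepatic P450 that oxidizes caffeine, was near the detection limit. The 0 min libraries had 3 and 8 counts, the 5 min libraries 7 and 2, the 10 min libraries 6 and 6, the 30 min libraries 7 and 3, and the 240 min libraries 16 and 10. The 240 min libraries, at 0.640 and 0.526 CPM, were above all 8 earlier libraries. The fitted difference from 0 min was 1.80 (log2, SE 0.47), and the ratio of summed counts, scaled to library size, was 3.55 with a 95% Clopper-Pearson interval of 1.69 to 7.96. This interval, like those below, covers counting error only, and replicates lay further apart than that. The genes were chosen on this contrast, so none of these intervals is read as a test.

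CYP1B1, the CYP1 enzyme found mainly outside the liver, lies at chr2:38294746-38303323 on the minus strand. It had 2 to 8 counts in the 8 earlier libraries and 6 and 10 counts at 240 min. In CPM the 240 min libraries were the highest, at 0.240 and 0.526, but replicate 1 stood beside 0.239 in the highest earlier library. The ratio of summed counts to 0 min was 1.85 (95% Clopper-Pearson interval 0.833 to 4.17).

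**Figure D2:**
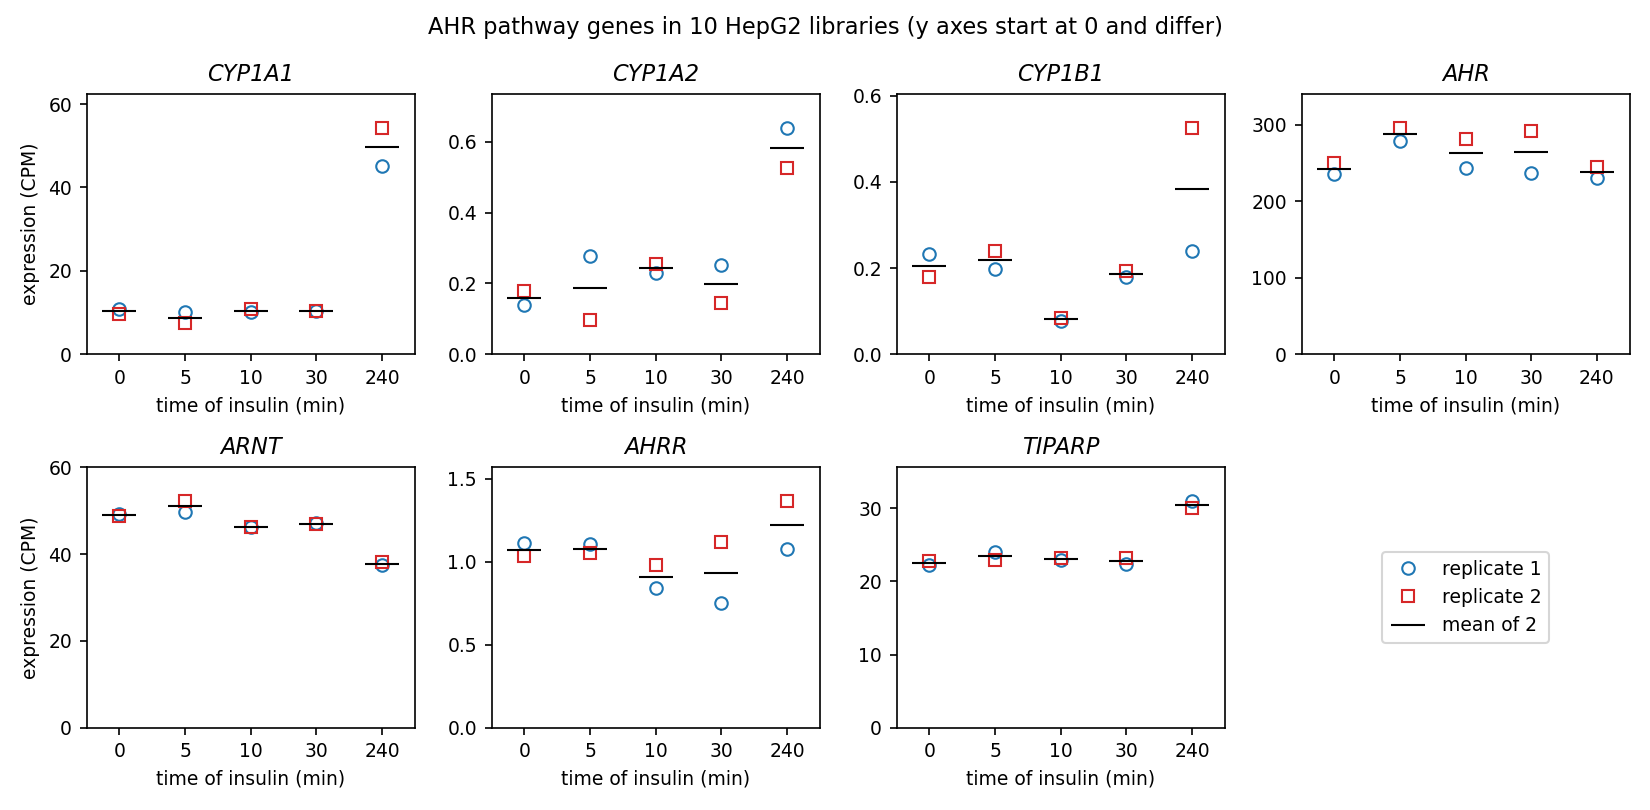
Expression of the 7 genes in CPM (y axes start at 0 and differ) against the time of insulin in min (x axis, evenly spaced). Circles are replicate 1, squares replicate 2 and bars the mean of both; CYP1A1 stays between 7.42 and 10.9 CPM up to 30 min and is at 45.2 and 54.4 CPM at 240 min.

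AHR itself, at chr7:17338276-17385775 on the plus strand, was the most abundant of the 7 genes. Its level was 235 and 250 CPM at 0 min, 279 and 296 CPM at 5 min, 244 and 282 CPM at 10 min, 237 and 292 CPM at 30 min, and 231 and 245 CPM at 240 min. The 240 min libraries overlapped the 0 min libraries, with a fitted difference of -0.029 (log2, SE 0.078) that was above 0 in the length-scaled values (0.013). Of the 50-base stretches of AHR, 29.0% also occurred in other annotated genes. This is a share of distinct stretches and not of reads, and its effect on the count of AHR was not tested.

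ARNT, which encodes the partner that AHR needs to bind DNA, lies at chr1:150782181-150849244 on the minus strand. It was at 49.2 and 48.8 CPM at 0 min, 49.8 and 52.2 CPM at 5 min, 46.2 and 46.3 CPM at 10 min, 47.1 and 46.9 CPM at 30 min, and 37.5 and 38.2 CPM at 240 min. It was the only one of the 7 genes whose 240 min libraries were both below all 8 earlier ones. The fitted difference from 0 min was -0.37 (log2, SE 0.056).

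TIPARP encodes an ADP-ribosyltransferase that AHR induces and that in turn represses AHR, and lies at chr3:156392205-156424557 on the plus strand. Its level was 22.2 and 22.8 CPM at 0 min, 22.4 to 24.0 CPM over the 6 libraries of 5, 10 and 30 min, and 31.0 and 30.0 CPM at 240 min. Both 240 min libraries were above all earlier ones, with a fitted difference of 0.44 from 0 min (log2, SE 0.068).

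AHRR, which competes with AHR for ARNT, lies at chr5:304291-438405 on the plus strand. It was near 1 CPM throughout, from 21 to 46 counts per library. At 240 min it stood at 1.08 and 1.37 CPM, overlapping 1.11 and 1.03 CPM at 0 min, and the ratio of summed counts was 1.14 (95% Clopper-Pearson interval 0.780 to 1.65). In the annotation 57.4% of its 50-base stretches also occurred in the readthrough gene PDCD6-AHRR, which had no row in the count table, so AHRR values are uncertain.

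Of the 7 genes, CYP1A1, CYP1A2, CYP1B1 and TIPARP were thus higher at 240 min than in every earlier library, ARNT was lower, and AHR and AHRR overlapped. Of all genes tested, 23.4% were higher and 21.3% lower by the same measure. Since the genes were chosen on this contrast, nothing is read from these counts.

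**Figure D3:**
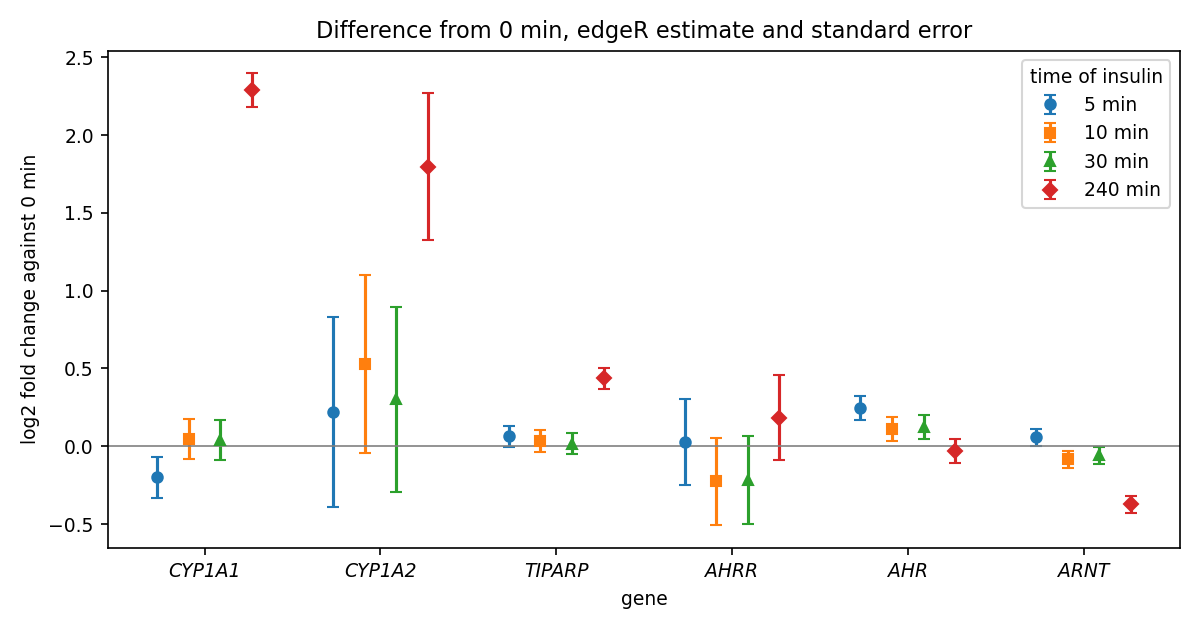
Log2 fold change against 0 min (y axis) of the 6 tested genes at 5, 10, 30 and 240 min, with edgeR estimates as points and standard errors as bars. CYP1A1 and CYP1A2 stand at 2.29 and 1.80 at 240 min, and the bars of CYP1A2 and AHRR, which have few counts, are the widest.

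To ask whether these genes moved before 240 min, the early times were tested against 0 min, in comparisons that share the 0 min libraries with the choice of the genes. CYP1A2 passed the low-count filter only through its 240 min libraries and is left out here, with at most 8 counts in any earlier library. None of the other 5 tested genes passed at 5, 10 or 30 min by edgeR's quasi-likelihood test after Benjamini-Hochberg adjustment, and none did with DESeq2 or limma. Of all genes, 0% passed at 5 min, 0.137% at 10 min and 0.332% at 30 min. The adjusted p by edgeR was lowest at 0.252, 0.963 and 0.708 and highest at 0.977, 0.995 and 0.972 for 5, 10 and 30 min in turn.

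For CYP1A1 the edgeR differences from 0 min were -0.20 (log2, SE 0.13) at 5 min, 0.047 (SE 0.13) at 10 min and 0.039 (SE 0.13) at 30 min. The signs at 10 and 30 min turned when libraries were scaled by the ERCC spike-ins. AHR at 5 min was the only value with an unadjusted p under 0.05 against 0 min, at 0.25 (log2, SE 0.077) with an unadjusted p of 0.00505 and an adjusted p of 0.252 by edgeR. Both of its 5 min libraries were above both 0 min libraries, as for 24.5% of all genes. Without the filter on low counts its adjusted p was 0.00280 by edgeR, the only alternative in which a member passed. In that fit 144 of 20553 genes (0.701%) passed at 5 min, against 0 of 13852 with the filter, and the cause was not tested. Of all genes, 14.3% had an unadjusted p under 0.05 at 5 min, 5.13% at 10 min and 8.12% at 30 min.

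The comparisons among 5, 10 and 30 min set none of the 0 or 240 min libraries against another, although those libraries entered the filter and the estimate of the spread in the shared model. None of the same 5 genes passed in them, nor did any with only the compared times in the model. In the shared model 0.260% of all genes passed at 10 against 5 min, 0.397% at 30 against 5 min and 0.00722% at 30 against 10 min. ARNT alone had an unadjusted p under 0.05 by edgeR. Its difference was -0.14 (log2, SE 0.055) at 10 against 5 min, with an adjusted p of 0.287 by edgeR, and -0.12 (SE 0.055) at 30 against 5 min, with an adjusted p of 0.502. The share of all genes with an unadjusted p under 0.05 was 13.1% at 10 against 5 min, 9.94% at 30 against 5 min and 3.91% at 30 against 10 min.

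Levels of different genes can be compared per transcript length, in the length-scaled TPM values of the authors. At 0 min AHR had a mean of 96.0 TPM, ARNT 25.0, TIPARP 13.7, CYP1A1 9.61, AHRR 0.474, CYP1A2 0.136 and CYP1B1 0.0991. At 240 min CYP1A1 had moved above ARNT and TIPARP, to a mean of 48.3 TPM (libraries at 43.3 and 53.3), against 19.6 ± 0.686 TPM (SD, n = 2) for ARNT and 18.9 ± 0.144 for TIPARP. AHR, at 96.9 ± 5.66 TPM, stayed above it. The libraries of AHRR and CYP1A2 overlapped at 240 min, and those of CYP1A2 and CYP1B1 overlapped at 5 min, so the order of these neighbours is not separated from their spread.

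**Figure D4:**
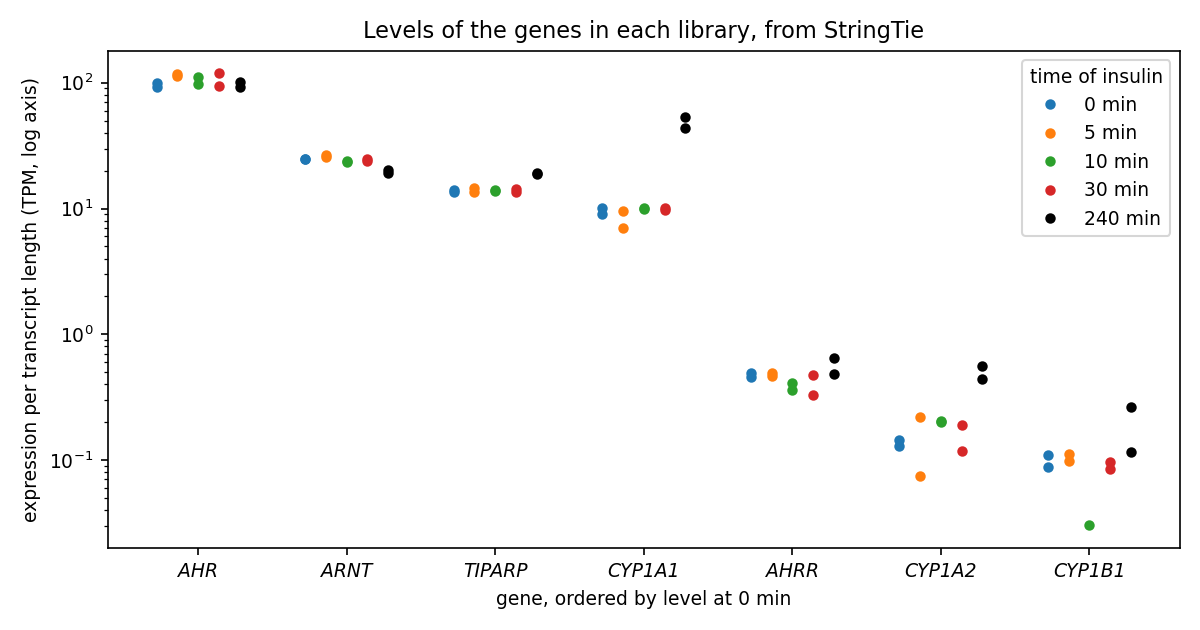
Expression per transcript length in TPM (log y axis) of the 7 genes, ordered by level at 0 min, with 1 point per library coloured by time. CYP1A1 at 240 min, 43.3 and 53.3 TPM, lies between AHR and ARNT; CYP1B1 is listed at 0 TPM in 10 min replicate 1 and is not drawn there.

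The 5 genes whose profile over the 10 libraries was most like that of CYP1A1, by Pearson correlation of log2 CPM among the 10387 other genes that averaged 5 CPM or more, included FASTKD2 (r = 0.992), MARS2 (0.991), NOP2 (0.991) and PTPN1 (0.991). These values are a description, since the points share libraries and depth and the 240 min libraries stand apart. Without those 2 libraries the r of the 5 genes was 0.593 to 0.863 over 8 libraries. By Spearman correlation, by time means or with ERCC scaling, 0 of the 5 genes stayed among the 5 most alike. Their rise at 240 min, 0.41 to 0.88 (log2), was smaller than that of CYP1A1.

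Genes around the pathway were described from 4 lists that hold none of the 7 genes, at 240 min against 0 min by edgeR's quasi-likelihood test. The lists were written with earlier results of these data known, so they serve as a description. Of their 55 genes 42 were tested, 14 rose, 13 fell and 15 did not pass. Among all genes 41.0% passed, 20.6% higher and 20.4% lower, and the median log2 fold change was -0.0026. With libraries scaled by the ERCC spike-ins, which moved the median of all genes to -0.12, 3 list genes rose and 3 fell, where 2.39% of all genes rose and 5.26% fell. With limma on TPM 8 fell, where 13% to 13.3% of all genes fell.

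Of the 12 genes of the AHR complex and its coactivators, all tested, 3 rose and 4 fell, with a median of -0.056. The chaperone HSP90AA1 fell from 1745 to 1456 CPM (log2 -0.26, SE 0.051, adjusted p = 0.000451 by edgeR). HSP90AB1 stood at -0.11 without passing (adjusted p = 0.0799 by edgeR), but it passed with DESeq2 (adjusted p = 0.0131 by DESeq2). The acetyltransferases CREBBP and EP300 fell, with log2 differences of -0.31 and -0.24. HIF1A, the hypoxia factor that also pairs with ARNT, rose by 0.42, ARNT2, a paralog of ARNT, by 0.25, and the coactivator NCOA1 by 0.23. With ERCC scaling each of the 7 calls in this list was lost, at log2 differences that kept their direction, such as -0.38 for HSP90AA1, -0.43 for CREBBP and 0.30 for HIF1A. The call of ARNT2 was also lost with DESeq2, with limma on TPM, with only the compared times in the model and without 0 min replicate 1, 0 min replicate 2 or 240 min replicate 2, over a range of 0.14 to 0.36 with 1 library left out. That of NCOA1 was lost without 240 min replicate 1 (log2 0.17).

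Of 22 other AHR target genes 14 were tested, and 6 rose, 2 fell and 6 did not pass, with a median of 0.19. The Notch effector HES1 rose from 13.5 to 25.4 CPM (log2 0.91, SE 0.094, adjusted p = 3.85e-07 by edgeR). The EGF-family ligand EREG rose by 0.81, the amino acid transporter SLC7A5 by 0.71 and the aldehyde dehydrogenase ALDH3A1 by 0.53 on the log2 scale. CYP2S1, a P450 of another family, fell by 0.66, and the DNA polymerase POLK fell by 0.31. The 240 min libraries of HES1, EREG, SLC7A5 and POLK stood outside all earlier libraries, whereas those of ALDH3A1 and CYP2S1 overlapped them. ALDH3A1 stood at 0.53 at 30 min against 0 min too (log2, adjusted p = 0.477 by edgeR). NQO1, the quinone reductase widely used as an AHR and NRF2 target, stood at 510 and 557 CPM at 0 and 240 min. It did not pass (adjusted p = 0.162 by edgeR), but it did without the filter on low counts. With 1 library left out its log2 difference ranged from 0.0050 to 0.26. ALDH3A1, EREG and POLK lost their call with ERCC scaling and with limma on TPM, ALDH3A1 also with DESeq2, and CYP2S1 with limma on TPM. With 1 library left out, ALDH3A1 ranged from 0.37 to 0.83, EREG from 0.58 to 1.24, CYP2S1 from -0.91 to -0.41 and POLK from -0.40 to -0.22. Their calls were lost without 240 min replicate 1 (ALDH3A1, CYP2S1 and POLK), 240 min replicate 2 (ALDH3A1 and EREG), 0 min replicate 1 (ALDH3A1 and EREG), 0 min replicate 2 (POLK) or 30 min replicate 1 (ALDH3A1).

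The kynurenine pathway breaks down tryptophan and yields AHR ligands. Of its 10 genes 4 were tested, and 3 fell, with a median of -0.17. KYNU, which cleaves kynurenine, fell from 58.1 to 42.9 CPM (log2 -0.44, SE 0.060, adjusted p = 9.63e-06 by edgeR), QPRT by 0.19 and AFMID by 0.15 on the log2 scale. The 240 min libraries of KYNU were below all earlier libraries, whereas those of QPRT and AFMID overlapped them. QPRT stood at -0.18 at 5 min against 0 min (log2, adjusted p = 0.281 by edgeR). The calls of QPRT and AFMID were lost with ERCC scaling, with upper-quartile normalization and with limma on TPM, and that of AFMID with DESeq2. They were also lost without either 0 min library, without 240 min replicate 1 (QPRT) or 2 (AFMID), and without either 10 min library (AFMID). Of the enzymes that start the pathway, IDO1 and IDO2 had 0 counts in every library and TDO2 had at most 6 in any.

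Of 12 genes of P450 electron transfer and heme supply, all tested, 5 rose and 4 fell, with a median of 0.045. HMOX1, which degrades heme, rose from 13.5 to 24.7 CPM (log2 0.87, SE 0.091, adjusted p = 4.57e-07 by edgeR). Of the synthesis enzymes, FECH rose by 0.50, ALAS1, the first and rate-limiting one, by 0.36 and UROS by 0.34, whereas PPOX fell by 0.63, ALAD by 0.40 and CPOX by 0.25 on the log2 scale. POR, the reductase that passes electrons to the CYP1 enzymes, fell from 221 to 193 CPM (log2 -0.19). Of these, HMOX1 and PPOX alone kept their call with ERCC scaling, and POR lost it with limma on TPM too. Without 0 min replicate 2 the calls of PPOX, UROS and POR were lost, and without 240 min replicate 2 that of POR.

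**Figure D5:**
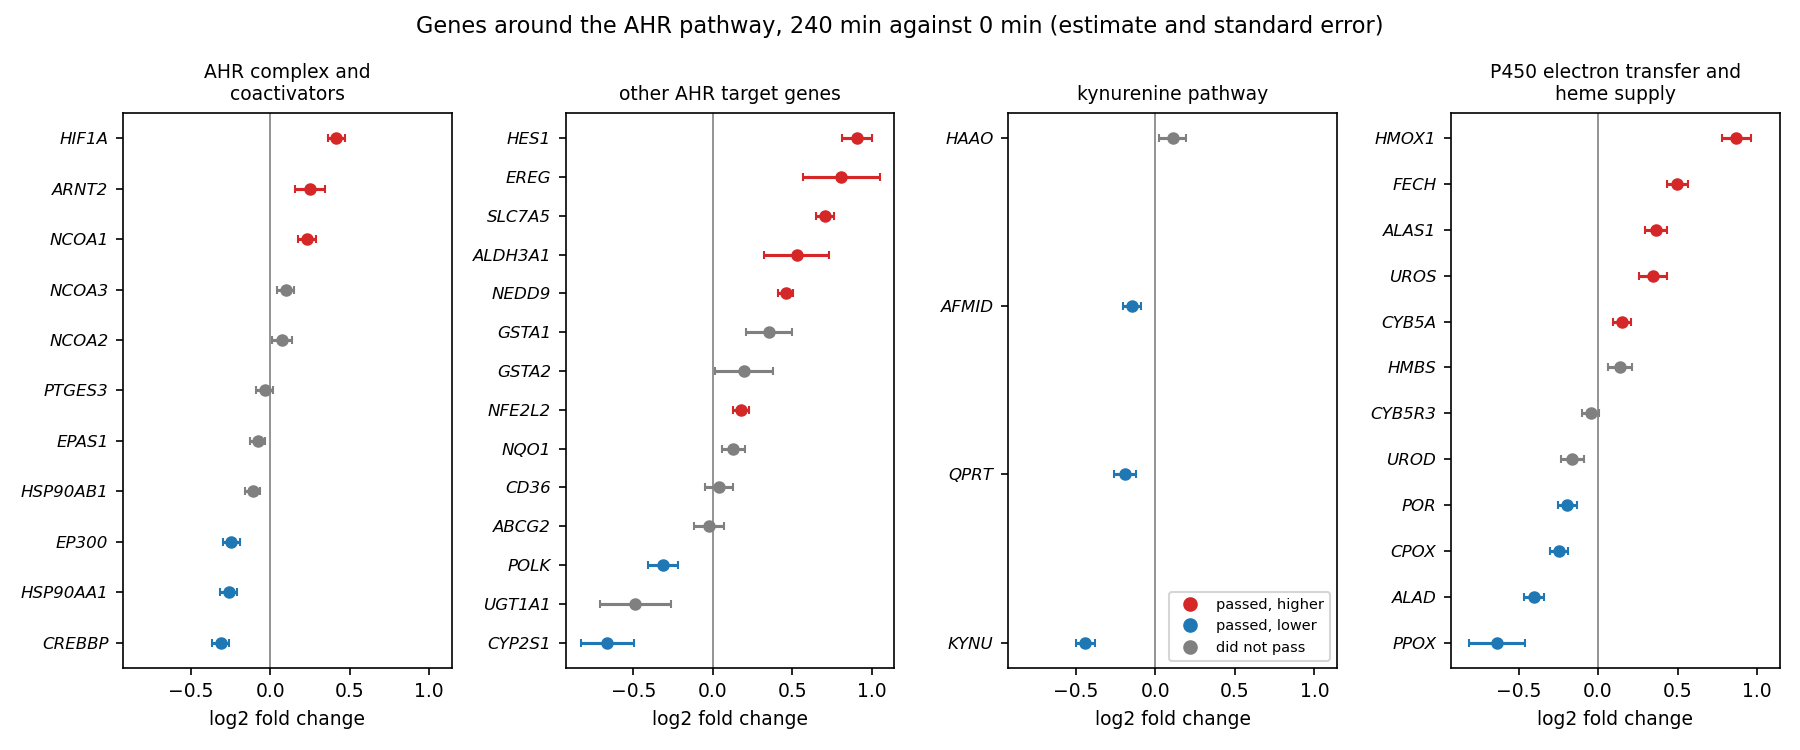
Log2 fold change at 240 min against 0 min (x axis) of tested genes of the 4 lists, with 1 gene left out, in 1 panel per list, with edgeR estimates as points and standard errors as bars. Red genes rose, blue genes fell and grey genes did not pass; HES1 at 0.91 is the highest and CYP2S1 at -0.66 the lowest.

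Before 240 min 1 of the 42 list genes passed in any comparison. NCOA3, a steroid receptor coactivator, was lower at 10 than at 5 min (log2 -0.28, adjusted p = 0.0271 by edgeR), where 0.260% of all genes passed. Against 0 min it stood at 0.13 at 5 min and -0.15 at 10 min and passed at neither (adjusted p = 0.301 and 0.754 by edgeR). This early call was not recomputed under the alternatives.

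In the IR ChIP-seq, 0 of the 7 genes had a peak within the gene extended by 5 kb, whereas 15.7% of the genes tested had one among the 1971 peaks. The count was also 0 within 1 kb, within 20 kb, among peaks with a score above the median and by HOMER's nearest gene, where 14.1%, 21.2%, 8.77% and 8.58% of the genes tested had one. The peak nearest to the start of CYP1A1 was 109.4 kb away, at chr15:74908037-74908436, and that of ARNT 94.7 kb away. Those of CYP1A2, TIPARP and CYP1B1 were 132.7, 118.9 and 150.5 kb away, and those of AHR and AHRR 4128.5 and 11292.5 kb away. This rests on 1 library without a replicate, and a peak that was not called does not show that IR was absent.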

How the data were processed

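The authors trimmed single-end RNA reads with Trim Galore 0.6.4, aligned them to hg19 with STAR 2.6.1d, counted them on genes as reverse-stranded with featureCounts 1.6.4, and deposited raw counts. The authors also deposited StringTie abundances as TPM. They aligned ChIP-seq reads with BWA, called peaks on 1 library with MACS2 2.2.7.1 and, per the file headers, deposited a score for each peak with HOMER's annotation. The deposited extraction texts of RNA and ChIP libraries differ from the study's methods, so read lengths are not given.

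From the counts, edgeR 4.0.16 in R 4.3.3 was run with TMM, filterByExpr and the quasi-likelihood test, two-sided, in 1 model of the 10 RNA libraries without a replicate block, at a Benjamini-Hochberg adjusted p of 0.05 over all genes tested. Standard errors were the log2 fold change divided by the square root of F. The 92 ERCC rows (1.59% to 2.36% of counts) stayed out of library sizes. The code was tested on simulated data.

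The genes and lists were chosen with earlier results of these data known. Named are the 7 genes, of each list at most the 4 largest changes in each direction among genes that passed, plus POR, NQO1 and HSP90AB1, and genes among the 5 most like CYP1A1. Other list genes (NCOA2, NCOA3, NFE2L2, IDO1, IDO2 and TDO2) were named after their values were seen. The values of 2 genes that the naming rule covers are not reported here. The alternatives were DESeq2 1.42.0, the likelihood ratio test, limma 3.58.1 on TPM, other scalings and filters, fewer libraries, thinning and a replicate block. Motifs were searched in GRCh37, and 6 of the 7 genes had an entry in the RefSeq promoter table. Peaks and sequences were handled with Python 3.11.15 and pandas 2.3.3.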

Additional observations from a re-analysis of the deposited data

How the results depend on the processing

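The rise of CYP1A1 at 240 min was 2.16 to 2.32 (log2) over the alternatives and 2.15 to 2.42 with 1 library left out, always higher. That of CYP1A2 was 0.40 with limma on log2(TPM + 1), where the added 1 exceeds its level, and 1.35 on log2(TPM + 0.1). In the other alternatives that kept CYP1A2 it was 1.69 to 1.84, and 1.63 to 2.04 with 1 library left out. CYP1A2 was filtered out where 10 counts in every library or a mean of 1 TPM was required. The number of the genes passing at 5, 10 or 30 min against 0 min was 0, except 1 without the filter on low counts (AHR at 5 min). List genes that rose numbered 14, with 3 under ERCC scaling, and those that fell 13, with 3 under ERCC scaling. With limma on log2(TPM + 1), on log2(TPM + 0.1) and on the genes averaging 1 TPM or more, 8, 8 and 8 fell. In the same fits 13%, 13% and 13.3% of all genes fell, against 20.4% in the main fit. Of the 5 genes most like CYP1A1, 0 stayed with Spearman correlation, 0 with ERCC scaling, 0 over time means and 1 to 3 with 1 library left out. The cause of these shifts was not tested.

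ERCC scaling moved the median of all genes by -0.083 at 5 min, -0.33 at 10 min, -0.13 at 30 min and -0.12 at 240 min against 0 min. Of 1707 values recomputed, which include counts that cannot turn, 46 changed direction, 24 of them with 1 library left out. Those of AHR at 240 min against 0 min carry no p, and none of the others passed the threshold. Under ERCC scaling the log2 values that turned were, at 5 min against 0 min, ARNT -0.027, AHRR -0.058 and TIPARP -0.018; at 10 min CYP1A1 -0.30, AHR -0.22 and TIPARP -0.29; at 30 min CYP1A1 -0.10, AHR -0.011 and TIPARP -0.11; and at 30 against 10 min CYP1A1 0.19 and TIPARP 0.18. With libraries thinned to the smallest total they were ARNT -0.00926 and AHRR -0.21 at 5 min, CYP1A1 -0.023, CYP1A2 -0.22 and AHRR 0.10 at 30 min, AHRR 0.073 at 10 against 5 min, and CYP1A2 -0.23 and AHRR 0.31 at 30 against 5 min. AHR at 240 min was 0.013, 0.013 and 0.013 in the 3 limma fits and -0.074 to 0.014 with 1 library left out.

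With 1 library left out, other log2 ranges that crossed 0 were as follows. Against 0 min they were -0.77 to 0.72 for CYP1A2 and -0.040 to 0.068 for AHRR at 5 min, -0.057 to 0.12 for CYP1A1 at 10 min, and at 30 min -0.065 to 0.11 for CYP1A1, -0.18 to 0.59 for CYP1A2, -0.030 to 0.27 for AHR, -0.49 to 0.072 for AHRR and -0.0061 to 0.046 for TIPARP. At 10 against 5 min they were -0.19 to 1.29 for CYP1A2 and -0.060 to 0.0054 for TIPARP. At 30 against 5 min they were -0.42 to 1.07 for CYP1A2, -0.27 to 0.022 for AHR and -0.52 to 0.045 for AHRR. At 30 against 10 min they were -0.049 to 0.030 for CYP1A1, -0.71 to 0.054 for CYP1A2, -0.15 to 0.15 for AHR, -0.27 to 0.30 for AHRR and -0.042 to 0.013 for TIPARP. A time left with 1 library was assumed to vary like the others.

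Libraries with the same replicate number did not meet the measure set for pairing. Over 10 pairs of times r was from -0.12 to 0.13, with 2 pairs over 0.1. By deviation from the mean of their time, 8 of 10 libraries correlated best with 1 of their own number. With 2 libraries per time the deviations mirror each other, so both always give the same answer and are not separate outcomes. This is at most a hint from the data and not from the design, so the libraries were treated as unpaired. With the replicate block, CYP1A1 at 240 min was 2.29 and 0 members passed at the early times. In that fit 14 list genes rose and 14 fell, where 21.1% of all genes rose and 21.1% fell. With the block 5845 genes passed at 240 min against 5676 without it, while 69 against 36 passed at 10 against 5 min. With ERCC scaling 1059 genes passed at 240 min.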

Other observations

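Of the 55 list genes, tested or not, 6 had an IR peak within the gene extended by 5 kb, in the 1 ChIP-seq library. Of 26334 genes, tested or not, 2541 had one. The 6 genes were all among the 42 list genes tested, and 2173 of all 13852 genes tested (15.7%) had a peak. The peaks at NCOA3, a coactivator, at POLK, a DNA polymerase, and at NFE2L2, which encodes the antioxidant factor NRF2, overlapped the annotated start. Their scores were 271, 344 and 58, at ranks 424, 351 and 1211 of 1971 peaks. The peak at QPRT was 64 bases from the start, that at NCOA2 864 bases and that at HES1 1057 bases. At 240 min HES1 and NFE2L2 rose, POLK and QPRT fell, and NCOA2 and NCOA3 did not pass.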
